A study of Mus musculus with 18 samples.

Results

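The 9 genes described here encode matricellular proteins, inhibitors and binding partners of extracellular proteases, a vasoconstrictor peptide, and cytoplasmic adaptors of the Hippo pathway. They are Ccn1, Ccn2, Thbs1, Timp3, Tinagl1, Pxdc1, Edn1, Amotl2 and Ajuba, taken by symbol from the 55401 genes in the tables. Several of them were chosen by their higher level in the lung of mice given RECTAS, so the lung contrast between RECTAS and vehicle is described without a test for these genes. RECTAS is a small molecule named for the rectification of aberrant splicing. The mice were C57BL/6N, 7 weeks old, with no genetic change given in the labels. One group received RECTAS at 100 mg/kg body weight suspended in 0.5% carboxymethyl cellulose (CMC), and the other received 0.5% CMC without the compound. Both were dosed by mouth with an interval of 4 h, and colon, lung and liver were collected 8 h after dosing began. Each of the 6 combinations of tissue and treatment had 3 libraries of polyadenylated RNA, 18 in all.

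Levels are given in TPM, shares of all transcripts that are adjusted for transcript length and sum to the same total in each library. The depth behind each value is therefore unknown. Genes above 0 per library numbered 23308 to 23874 (colon), 24084 to 25227 (lung) and 19836 to 20502 (liver). Separate animals are not stated for the 3 libraries of a group, so every p-value reflects the spread between libraries, which may be technical. It is also not stated whether 1 mouse gave all 3 tissues, and the tissue comparisons treat their libraries as independent. Each tissue carried its own markers, since colonocyte markers summed to between 12553 and 32416 TPM in colon, alveolar type 2 markers to between 35640 and 44065 TPM in lung, and hepatocyte markers to between 88792 and 111417 TPM in liver. Lung libraries also held hepatocyte marker RNA in unequal amounts, 17.1, 475 and 1355 TPM in vehicle and 1.92, 55.8 and 534 TPM in RECTAS. In bulk tissue RNA, fewer cells of a type and less RNA per cell cannot be told apart, and this holds for every level given here.

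As background, the Hippo pathway is a kinase cascade that keeps the coactivators YAP and TAZ out of the nucleus. When these coactivators enter the nucleus they bind TEAD transcription factors and raise genes such as Ccn1, Ccn2, Amotl2 and Ajuba. TGF-beta is stored in the matrix in a latent form, is released by integrins, proteases or thrombospondin, and signals through SMAD proteins to genes of matrix production, Ccn2 and Thbs1 among them. In lung, both pathways are studied mainly for repair, vessel growth and fibrosis.

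Ccn1 (chr3:145646976-145649981, minus strand, GRCm38) and Ccn2 (chr10:24595442-24598683, plus strand) encode secreted integrin ligands of the CCN family. Thbs1 (chr2:118111876-118127133, plus strand) encodes thrombospondin 1, a large matrix glycoprotein that binds CD36 and CD47. Timp3 (chr10:86300372-86349506, plus strand) encodes a matrix-bound inhibitor of metalloproteases. Tinagl1 (chr4:130164454-130175122, minus strand) encodes a secreted basement membrane protein related to cathepsins, and Edn1 (chr13:42301476-42307990, plus strand) encodes the precursor of endothelin 1. Amotl2 (chr9:102716672-102733418, plus strand) encodes an angiomotin that holds YAP at cell junctions, and Ajuba (chr14:54567472-54577558, minus strand) encodes a LIM protein that inhibits LATS kinases. Pxdc1 (chr13:34627834-34653486, minus strand) encodes a PX domain protein whose role is little described. All are annotated as protein coding genes.

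Sequence just before the transcription start was available in RefSeq (GRCm38.p6) for 7 of the 9 genes, as promoters of 250 bases before the start and 50 after it. The letters GGAATG, the core of TEAD binding sites, were sought on both strands. They occurred in 5 of those 7 genes and in 16.6% of the 27025 genes with such a promoter. The genes were gathered partly as known genes of this pathway, with Ccn1, Amotl2 and Ajuba named above as raised through TEAD. The count is therefore not independent of the choice of genes, and nothing is read from the comparison. In all 5 genes they lay on the strand opposite to transcription and so read as CATTCC, in capitals in the windows printed 5′ to 3′ on the strand of the gene. The windows are shown because they place the known binding letters of the pathway beside the genes that the levels concern. Apart from Tinagl1 they were chosen after the levels were seen. The match began 103 bases before the start in Ccn1, 149 in Tinagl1, 65 in Amotl2, 207 in Edn1, and 186 and 164 in Ajuba. These starts are those of RefSeq, whereas the gene spans given above come from another annotation. The Amotl2 window and the Pxdc1 promoter lie inside those spans, as does the Tinagl1 promoter at chr4:130174753-130175052 described below. The windows lie at chr3:145650066-145650105 (Ccn1, minus strand), chr4:130175249-130175288 (Tinagl1, minus strand), chr9:102717722-102717761 (Amotl2, plus strand), chr13:42301252-42301291 (Edn1, plus strand), and chr14:54577825-54577864 and chr14:54577803-54577842 (Ajuba, minus strand).
Ccn1: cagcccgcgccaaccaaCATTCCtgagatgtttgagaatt
Tinagl1: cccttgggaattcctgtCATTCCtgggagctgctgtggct
Amotl2: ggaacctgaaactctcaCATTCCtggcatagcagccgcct
Edn1: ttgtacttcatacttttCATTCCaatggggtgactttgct
Ajuba, outer match: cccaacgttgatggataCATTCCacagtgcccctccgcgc
Ajuba, inner match: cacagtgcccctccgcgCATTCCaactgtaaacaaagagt

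Timp3 and Pxdc1 held none of the motifs sought in this window. The shorter SMAD site CAGACA occurred in 1 of the 7 genes, Ajuba, against 23.6% of all genes, and the SMAD palindrome GTCTAGAC in 0 of 7 against 0.248%. The AP-1 motif TGANTCA, in which N is any base, occurred in 1 of 7, Tinagl1, against 8.97%. These searches also covered both strands, and no match of one motif overlapped a match of another. The 5 genes whose lung groups lay apart (below) were Ccn2, Thbs1, Timp3, Tinagl1 and Pxdc1, of which the last 3 were searched. Tinagl1 was the one of these 3 with a match. Of its 2 RefSeq promoters, that at chr4:130174753-130175052 held none of the motifs, and that at chr4:130175073-130175372 (minus strand) is shown whole, with the AP-1 match and then the TEAD match in capitals. A match of letters is a description and does not show a bound site.
Tinagl1 promoter: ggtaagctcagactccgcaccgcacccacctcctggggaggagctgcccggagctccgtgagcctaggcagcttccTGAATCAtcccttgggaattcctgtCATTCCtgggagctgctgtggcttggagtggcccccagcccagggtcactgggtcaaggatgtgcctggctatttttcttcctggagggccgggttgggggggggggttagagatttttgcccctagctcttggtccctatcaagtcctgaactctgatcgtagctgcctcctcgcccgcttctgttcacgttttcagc

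Lung held the highest level of all 9 genes among the vehicle libraries. The rule that chose the genes did not name levels by tissue. A gene seen as raised in lung must be expressed there, however, so the tissue comparison is not independent of the choice. Levels by tissue were tested with limma in 1 fit of the 9 vehicle libraries. All 9 were higher in lung than in both other tissues at an adjusted p under 0.05, as were 45% of all genes tested. Separately, 75.7% of genes differed between lung and colon, 88% between lung and liver and 79.9% between liver and colon, so a call by itself was common. The median of all genes also differed, by 0.35 between lung and colon, by 1.10 between lung and liver and by -0.68 between liver and colon on the log2 scale, and the size of each gene's difference is read beside those shifts.

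The CCN genes stood far above their levels elsewhere. Ccn1 measured 105, 94.2 and 74.9 TPM in the vehicle lung libraries, 4.96, 8.35 and 11.4 TPM in liver and 6.80, 2 and 2.84 TPM in colon. Its vehicle lung mean was 23.6 times that of colon (log2 difference 4.35, SE 0.37, adjusted p = 4.1e-06 by limma with n = 3 per group) and 11.1 times that of liver (3.37, SE 0.37, adjusted p = 1.5e-05). Lung and the other tissues did not overlap, whereas liver and colon did, with colon library 1 above liver library 1. The liver mean was 2.12 times the colon mean (log2 0.98, SE 0.37, adjusted p = 0.033 by limma), and that call was lost without colon library 2 or 3 or without liver library 2 or 3 (adjusted p = 0.12, 0.097, 0.079 and 0.12).

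Ccn2 measured 79.8, 67.4 and 78.6 TPM in vehicle lung, 10.7, 4.83 and 4.45 TPM in colon and 3.25, 1.45 and 2.40 TPM in liver. Colon lay between lung and liver, with no overlap between any of the 3 tissues. The lung mean was 11.3 times the colon mean (log2 3.40, SE 0.30) and 31.8 times the liver mean (4.53, SE 0.30), and the colon mean was 2.81 times the liver mean. Under median ratio scaling of the libraries the difference between liver and colon was -0.52 with an adjusted p of 0.15 by limma, and under quantile normalisation it was -0.26 with an adjusted p of 0.41. Without mitochondrial and the 20 highest genes it was -1.15 (adjusted p = 0.0078 by limma). Within each vehicle library the ratio of Ccn2 to Ccn1 was 0.757, 0.716 and 1.05 in lung, 1.57, 2.41 and 1.57 in colon and 0.655, 0.174 and 0.211 in liver. The balance between the paralogs was thus toward Ccn2 in each vehicle colon library and toward Ccn1 in each vehicle liver library.

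Thbs1 and Edn1 were near the limit of the scale in liver. Thbs1 measured 28.7, 32.0 and 24.8 TPM in vehicle lung, 19.3, 10.5 and 14.2 TPM in colon and 0.23, 0.30 and 0.39 TPM in liver. The lung mean was 1.94 times the colon mean (log2 0.94, SE 0.19, adjusted p = 0.0016 by limma with n = 3 per group), and the colon mean was 47.9 times the liver mean. Edn1 measured 16.5, 24.6 and 13.3 TPM in vehicle lung, 12.3, 9.14 and 6.34 TPM in colon and 0.45, 0.24 and 0.12 TPM in liver. Lung was above colon in each library by a narrow margin, 1.96 times in the mean (log2 0.90, SE 0.26, adjusted p = 0.011). Under median ratio scaling that difference was 0.62 with an adjusted p of 0.060, and under quantile normalisation 0.47 with an adjusted p of 0.15. Without mitochondrial and the 20 highest genes it was 0.96 (adjusted p = 0.0097 by limma).

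Among the protease inhibitor and basement membrane genes, Timp3 had the highest lung level of the 9. It measured 271, 265 and 253 TPM in vehicle lung, 24.0, 14.6 and 18.7 TPM in colon and 7.82, 5.55 and 5.82 TPM in liver. The lung mean was 13.8 times the colon mean and 41.1 times the liver mean (log2 differences 3.74 and 5.17, SE 0.17 each, adjusted p = 6.8e-08 and 7e-09 by limma). Tinagl1 differed least between lung and colon, at 89.3, 91.9 and 94.0 TPM in vehicle lung and 81.3, 63.7 and 67.0 TPM in colon, against 12.5, 13.6 and 14.6 TPM in liver. The groups did not overlap, but the lung to colon difference of 0.38 (SE 0.10, adjusted p = 0.0068) was about the shift of all genes. Under median ratio scaling it was 0.09 with an adjusted p of 0.34. It kept its call by limma under quantile normalisation (0.42, adjusted p = 0.0024) and without mitochondrial and the 20 highest genes (0.42, adjusted p = 0.0028).

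The Hippo adaptors followed Ccn1 in their order across tissues. Amotl2 measured 71.5, 85.6 and 88.4 TPM in vehicle lung, 6.72, 8.06 and 8.23 TPM in liver and 5.81, 3.56 and 3.84 TPM in colon. Ajuba measured 30.8, 33.8 and 31.2 TPM in vehicle lung, 3.51, 5 and 5.07 TPM in liver and 2.97, 1.89 and 2.42 TPM in colon. For both genes no library of one tissue overlapped another tissue, and liver was above colon (1.74 times for Amotl2, adjusted p = 0.003, and 1.87 times for Ajuba, adjusted p = 0.0023, by limma). Pxdc1 measured 84.4, 94.6 and 96.3 TPM in vehicle lung, 42.1, 43.8 and 38.0 TPM in liver and 3.51, 4.43 and 2.56 TPM in colon, so its liver level was nearer to lung than that of any other of the 9. Its lung mean was 26.2 times the colon mean and 2.22 times the liver mean (log2 1.13, SE 0.14, adjusted p = 4.8e-05 by limma). Under median ratio scaling the difference from liver was 0.05 with an adjusted p of 0.79. It kept its call by limma under quantile normalisation (0.61, adjusted p = 0.0076) and without mitochondrial and the 20 highest genes (1.10, adjusted p = 9.3e-05).

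Order by tissue therefore split the 9 genes. Lung, then liver, then colon was the order of means for Ccn1, Pxdc1, Amotl2 and Ajuba, and lung, then colon, then liver was the order for Ccn2, Thbs1, Timp3, Tinagl1 and Edn1. Under median ratio scaling 7, 8 and 8 of the 9 genes were called between lung and colon, lung and liver, and liver and colon, against 72.6%, 77.6% and 73.2% of all genes. Endothelial markers summed to 2952 to 3180 TPM in vehicle lung, 24.5 to 51.7 TPM in colon and 73.1 to 93.3 TPM in liver, with 0 of the 10 markers at 0. Their part in the order of tissues was not tested.

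**Figure D1:**
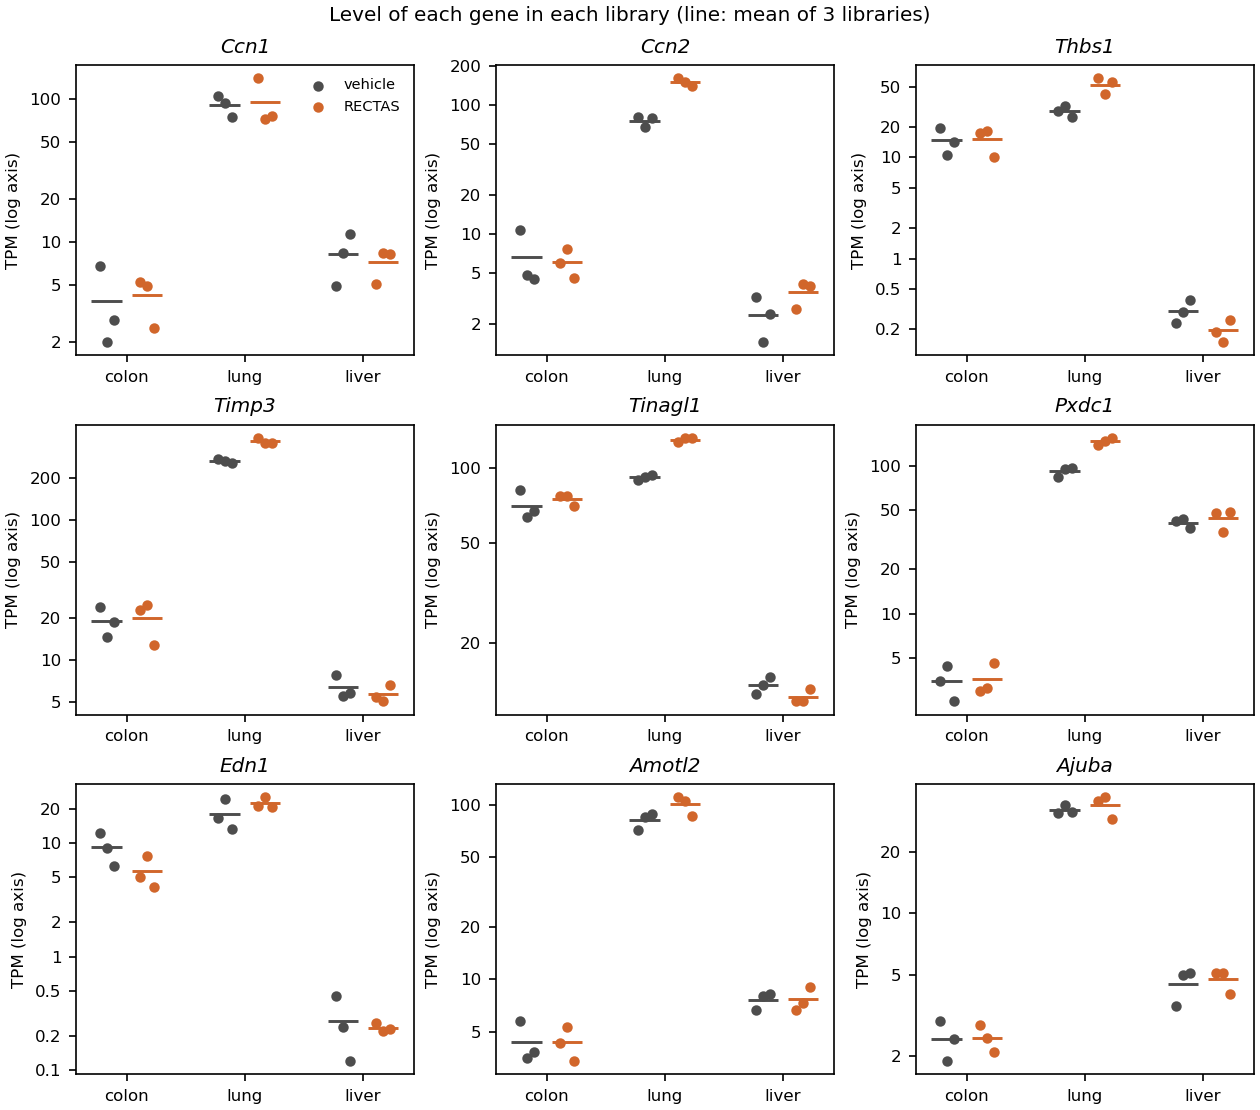
Level of each of the 9 genes in TPM on a log axis, by tissue, with 1 point per library (grey vehicle, orange RECTAS) and a line at the mean of 3 libraries. Lung holds the highest points for each gene, and the orange lung points lie wholly above the grey ones for Ccn2, Thbs1, Timp3, Tinagl1 and Pxdc1.

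In lung, 5 of the 9 genes had every RECTAS library above every vehicle library. They are Ccn2, Thbs1, Timp3, Tinagl1 and Pxdc1. The same held for 16.1% of the 15699 genes tested in lung, but nothing is read from the comparison because the genes were selected on this contrast. The median log2 difference of the 9 was 0.47, beside 0.058 for all genes tested. Across all genes limma called 0.00637% in lung, that is 1 gene, at an adjusted p under 0.05, and 1977 genes had an unadjusted p under 0.05.

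Ccn2, a TEAD and SMAD target and integrin ligand, measured 79.8, 67.4 and 78.6 TPM in vehicle lung and 160, 151 and 139 TPM in RECTAS lung. The lowest RECTAS library was well above the highest vehicle library, and the mean was 1.99 times higher (log2 difference 0.99, SE 0.087). It ranked 37 of 15699 genes by the size of its increase. Its paralog Ccn1 measured 105, 94.2 and 74.9 TPM in vehicle and 140, 72.3 and 76.9 TPM in RECTAS. RECTAS library 1 was the highest and RECTAS library 2 the lowest of all 6, the groups overlapped, and the mean difference was 0.02 (SE 0.26). Within each library the ratio of Ccn2 to Ccn1 was 0.757, 0.716 and 1.05 in vehicle and 1.14, 2.09 and 1.80 in RECTAS, without overlap but by a narrow margin. This ratio largely restates the higher Ccn2 level in the contrast on which the genes were selected, so nothing further is read from it.

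Thbs1 measured 28.7, 32.0 and 24.8 TPM in vehicle lung and 60.2, 42.0 and 55.1 TPM in RECTAS lung. All 3 RECTAS libraries were above the highest vehicle library, with a mean 1.84 times higher (log2 0.85, SE 0.15, rank 64). Edn1, the gene of endothelin 1, measured 16.5, 24.6 and 13.3 TPM in vehicle and 21.4, 25.3 and 21.1 TPM in RECTAS. Here vehicle library 2 exceeded RECTAS libraries 1 and 3, so the groups overlapped at a mean ratio of 1.24 (log2 0.34, SE 0.21).

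Timp3 measured 271, 265 and 253 TPM in vehicle lung and 385, 356 and 353 TPM in RECTAS lung. Its libraries were close to each other within a group, and the mean was 1.39 times higher with RECTAS (log2 0.47, SE 0.059, rank 277). Tinagl1 measured 89.3, 91.9 and 94.0 TPM in vehicle and 127, 132 and 132 TPM in RECTAS. It had the smallest SE of the 9, with a mean 1.42 times higher (log2 0.50, SE 0.051, rank 240). Under quantile normalisation the differences were 0.36 for Timp3 and 0.41 for Tinagl1, still with no overlap between groups.

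Pxdc1 measured 84.4, 94.6 and 96.3 TPM in vehicle lung and 137, 146 and 154 TPM in RECTAS lung. The groups lay apart by more than the range within either, and the mean was 1.59 times higher (log2 0.67, SE 0.074, rank 122). Amotl2 measured 71.5, 85.6 and 88.4 TPM in vehicle and 110, 105 and 86.5 TPM in RECTAS, where RECTAS library 3 fell below the highest vehicle library. Its mean ratio was 1.23 (log2 0.29, SE 0.12). Ajuba measured 30.8, 33.8 and 31.2 TPM in vehicle and 35.6, 36.9 and 28.9 TPM in RECTAS. RECTAS library 3 was the lowest of the 6 Ajuba values, and the mean ratio was 1.06 (log2 0.07, SE 0.10).

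RECTAS library 3 was the lowest RECTAS library for Ccn2, Timp3, Edn1, Amotl2 and Ajuba, but not for Ccn1, Thbs1, Tinagl1 or Pxdc1. Without it, 7 of the 9 genes had groups that lay apart, without vehicle library 2 or 3 there were 6, and without any other single lung library 5. Under the 3 other scalings of the libraries the count was also 5.

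Cell type marker lists were summed in the lung groups, and of those given here only the alveolar type 1 and type 2 sums lay apart. Of all genes tested in lung, 65.4% were higher in the mean with RECTAS, and the counts of markers are read beside that share. Mesothelial markers summed to 43.2, 79.9 and 102 TPM in vehicle lung and to 122, 101 and 86.4 TPM in RECTAS lung, with 6 of 6 markers higher in the mean and 0 at 0. Alveolar type 2 markers summed to 39165, 35640 and 38730 TPM in vehicle and 42786, 40289 and 44065 TPM in RECTAS, without overlap. Alveolar type 1 markers summed to 4910 to 5375 TPM in vehicle and 5403 to 5585 TPM in RECTAS, also without overlap. Endothelial markers (9 of 10 higher in the mean) summed to 2952 to 3180 TPM in vehicle and 3091 to 3551 TPM in RECTAS. Smooth muscle markers (8 of 8 higher) summed to 483 to 620 and 472 to 769 TPM, fibroblast markers (7 of 10) to 1279 to 1480 and 1386 to 1501 TPM, and macrophage markers (7 of 8) to 4630 to 5842 and 5402 to 6354 TPM. Ciliated cell markers (0 of 6 higher) summed to 856 to 950 TPM in vehicle and 769 to 859 TPM in RECTAS, platelet markers (1 of 4 tested) to 43.4 to 81.3 and 51.8 to 61.9 TPM, and hepatocyte markers (0 of 7) to the amounts given at the start. No marker of these lists was called in lung, none was at 0 there, and the part of cell composition in the levels of the 9 genes was not tested.

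**Figure D2:**
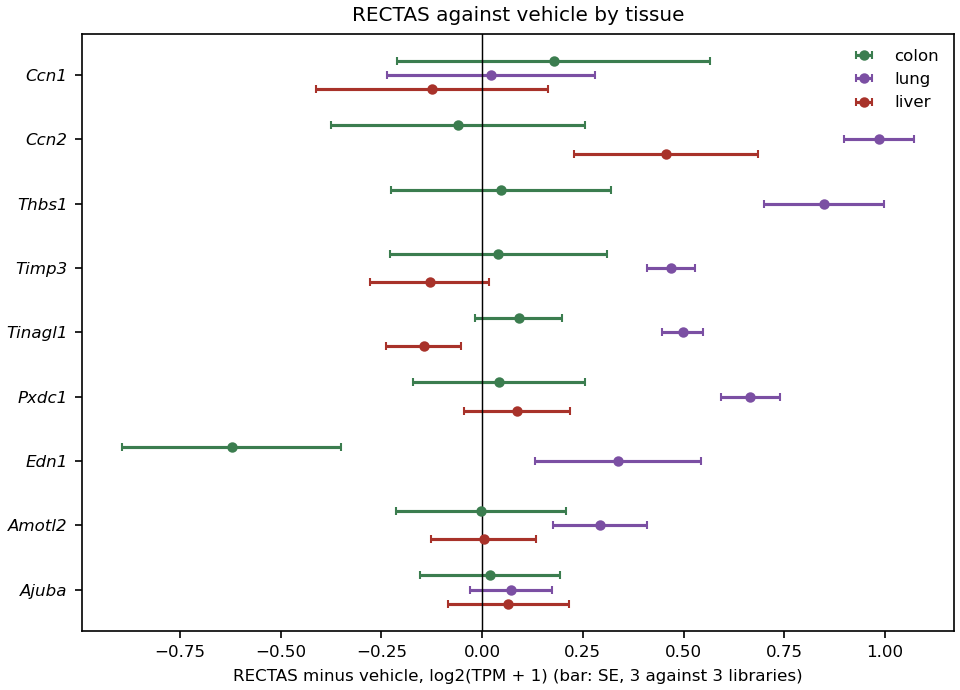
Difference between RECTAS and vehicle in log2(TPM + 1) for each gene, with colon in green, lung in purple and liver in red, and bars of 1 SE from 3 against 3 libraries. Lung points lie furthest right for Ccn2, Thbs1, Pxdc1, Tinagl1 and Timp3, by which the genes were chosen, and no liver point is drawn for Thbs1 and Edn1, which were under the expression filter there.

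In colon, where the 9 genes were not chosen by the contrast, 0 of 9 were called and 0 had an unadjusted p under 0.05. By limma 0% of the 14282 genes tested in colon were called, and 231 genes had an unadjusted p under 0.05. The median log2 difference of the 9 was 0.04, beside 0.018 for all genes tested. Groups lay apart for 0 of the 9 genes, whereas RECTAS lay wholly above vehicle in 3.43% and wholly below it in 2.01% of all genes. The 95% intervals of the differences by limma were wide, at -0.81 to 0.68 for Ccn2, -0.60 to 0.69 for Thbs1, -0.59 to 0.67 for Timp3 and -0.46 to 0.54 for Pxdc1.

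Ccn2 measured 10.7, 4.83 and 4.45 TPM in vehicle colon and 5.89, 7.61 and 4.52 TPM in RECTAS colon. Ccn1 measured 6.80, 2 and 2.84 TPM in vehicle and 5.25, 4.96 and 2.49 TPM in RECTAS. In both genes vehicle library 1 was the highest of the 6, and the groups overlapped fully. Thbs1 measured 19.3, 10.5 and 14.2 TPM in vehicle and 17.3, 18.3 and 10.1 TPM in RECTAS, and Timp3 24.0, 14.6 and 18.7 TPM in vehicle and 22.7, 24.6 and 12.8 TPM in RECTAS. RECTAS library 3 was the lowest of the 6 for both of these. Tinagl1 measured 81.3, 63.7 and 67.0 TPM in vehicle and 77.4, 77.0 and 70.4 TPM in RECTAS, with overlap between groups and a difference of 0.09 (95% interval -0.16 to 0.34).

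Edn1 had the largest difference of the 9 in colon and the opposite sign to lung. It measured 12.3, 9.14 and 6.34 TPM in vehicle colon and 5.06, 7.75 and 4.11 TPM in RECTAS colon. Only RECTAS library 2 exceeded a vehicle library, and the difference was -0.62 (SE 0.27, 95% interval -1.26 to 0.02), with an adjusted p of 1 by limma. Pxdc1 measured 3.51, 4.43 and 2.56 TPM in vehicle and 3.03, 3.17 and 4.66 TPM in RECTAS. Amotl2 measured 5.81, 3.56 and 3.84 TPM in vehicle and 4.31, 5.37 and 3.41 TPM in RECTAS, and Ajuba 2.97, 1.89 and 2.42 TPM in vehicle and 2.84, 2.44 and 2.10 TPM in RECTAS. The groups of these 3 genes overlapped, and their differences lay between -0.004 and 0.04.

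Levels in colon also varied between libraries of the same group. Smooth muscle markers summed to 5492, 2064 and 1951 TPM in vehicle colon and 3297, 3301 and 1752 TPM in RECTAS colon, and colonocyte markers ran the other way at 12553, 31510 and 21596 TPM in vehicle and 18758, 16497 and 32416 TPM in RECTAS. Vehicle library 1 and RECTAS libraries 1 and 2, the 3 libraries highest in smooth muscle markers, were also the 3 highest for 7 of the 9 genes, all but Edn1 and Pxdc1. Edn1 was high in vehicle libraries 1 and 2. Fibroblast markers were likewise highest in those libraries, at 355, 279 and 302 TPM against 141 to 220 TPM in the others, and so were endothelial markers, at 51.7, 44.6 and 49.2 TPM against 24.5 to 42.6 TPM. Pxdc1 was highest in RECTAS library 3 and vehicle library 2, the libraries highest in colonocyte markers. None of these markers was at 0 in colon, and the part of tissue layers in these levels was not tested.

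**Figure D3:**
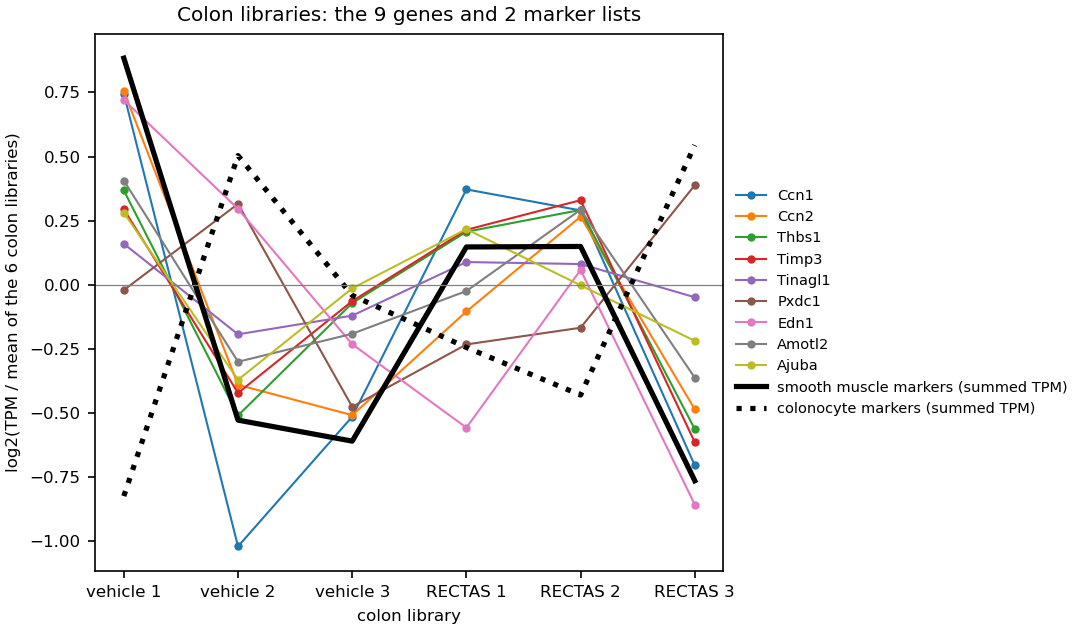
Each of the 9 genes (thin lines) and the summed smooth muscle (solid black) and colonocyte (dotted black) markers in the 6 colon libraries, as log2 of TPM over the mean of the 6 libraries. Most genes rise and dip with the smooth muscle sum (5492 TPM in vehicle library 1, 1752 TPM in RECTAS library 3), whereas Pxdc1 has its highest point in RECTAS library 3.

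In liver, 7 of the 9 genes passed the filter of 1 TPM in 3 libraries, and 0 of these were called. By limma 0.0167% of the 11944 genes tested in liver were called, that is 2 genes, and 1388 genes but 0 of the 7 had an unadjusted p under 0.05. Groups lay apart for 0 of the 9, whereas RECTAS lay wholly above vehicle in 5.75% and wholly below it in 13% of all genes. The genes thus gave no detected difference between RECTAS and vehicle in liver at this number of libraries.

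Ccn2 had the largest difference of the 7 in liver. It measured 3.25, 1.45 and 2.40 TPM in vehicle liver and 2.63, 4.10 and 3.94 TPM in RECTAS liver. RECTAS libraries 2 and 3 were above all vehicle libraries and RECTAS library 1 was not, and the difference was 0.46 (SE 0.23, 95% interval -0.08 to 0.997, adjusted p = 0.50 by limma). Ccn1 measured 4.96, 8.35 and 11.4 TPM in vehicle and 5.12, 8.36 and 8.30 TPM in RECTAS, with full overlap. The ratio of Ccn2 to Ccn1 in a library was 0.655, 0.174 and 0.211 in vehicle and 0.514, 0.490 and 0.475 in RECTAS, which also overlapped.

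Timp3 measured 7.82, 5.55 and 5.82 TPM in vehicle liver and 5.49, 5.07 and 6.63 TPM in RECTAS liver, and Tinagl1 12.5, 13.6 and 14.6 TPM in vehicle and 11.7, 11.6 and 13.1 TPM in RECTAS. The groups overlapped for both genes, and the 95% intervals were -0.48 to 0.22 and -0.37 to 0.08. Pxdc1 measured 42.1, 43.8 and 38.0 TPM in vehicle and 47.7, 35.9 and 49.0 TPM in RECTAS, where RECTAS library 2 was the lowest of the 6 and the interval was -0.22 to 0.40. Amotl2 measured 6.72, 8.06 and 8.23 TPM in vehicle and 6.69, 7.37 and 9.10 TPM in RECTAS, and Ajuba 3.51, 5 and 5.07 TPM in vehicle and 5.10, 5.12 and 4.04 TPM in RECTAS. Both overlapped, with differences of 0.003 and 0.07. Thbs1 was at 0.23, 0.30 and 0.39 TPM in vehicle and 0.19, 0.15 and 0.25 TPM in RECTAS, and Edn1 at 0.45, 0.24 and 0.12 TPM and at 0.26, 0.22 and 0.23 TPM. These levels were too low to be tested.

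The difference between the liver and colon responses was tested in 1 limma fit of the 18 libraries, which called 0 of the 9 genes and 0.0285% of the 17537 genes tested. Among the 7 genes that passed the filter in both tissues, the largest differences of the responses were those of Ccn2 (0.52, 95% interval -0.27 to 1.3) and Ccn1 (-0.30, -1.40 to 0.80), each with an adjusted p of 1. Edn1, at 0.45 TPM or less in liver, entered this fit through colon and lung, so its value of 0.59 (-0.12 to 1.3) mostly restates its colon difference. Differences that involve lung were not tested. Side by side, the lung minus colon difference of the responses was 1.05 for Ccn2, 0.96 for Edn1, 0.80 for Thbs1, 0.62 for Pxdc1, 0.43 for Timp3, 0.41 for Tinagl1, 0.30 for Amotl2, 0.05 for Ajuba and -0.16 for Ccn1. The lung minus liver difference was 0.64 for Tinagl1, 0.60 for Timp3, 0.58 for Pxdc1, 0.53 for Ccn2, 0.29 for Amotl2, 0.15 for Ccn1 and 0.007 for Ajuba.

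Other genes of the same pathways were followed in 11 lists of 152 genes that held none of the 9. These lists were chosen with earlier results of these data known, and some genes stand in several lists. Their shares and medians are therefore descriptions and not independent evidence. In lung 0 of the 145 list genes tested were called by limma. For 53 of the 145 every RECTAS library was above every vehicle library, beside 16.1% of all genes. The 11 list medians lay between 0.11 and 0.26, each above the 0.058 of all genes, and all 11 also lay above the median of all genes in each of the 3 scalings tried. Hippo pathway components had 12 of 22 genes with groups apart and a median of 0.17. SRF/MRTF targets, genes of the actin cytoskeleton, had 8 of 13 and 0.23, TGF-beta pathway components 7 of 19 and 0.14, YAP/TAZ-TEAD targets 6 of 19 and 0.16, and TGF-beta responsive genes 5 of 20 and 0.19. Immediate early genes had 6 of 15 and a median of 0.26, with 9 higher and 6 lower in the mean, beside 65.4% of all genes higher. Receptors of the proteins described here had 4 of 10 genes with groups apart, matricellular genes 3 of 10 and metalloproteases 3 of 12. Protease inhibitors had 1 of 9 and endothelin pathway genes 0 of 4.

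Of the TGF-beta responsive genes, Lox, a collagen crosslinking oxidase, averaged 31.6 ± 3.89 TPM with RECTAS and 22.4 ± 3.05 TPM with vehicle in lung (SD, n = 3) (log2 0.48, adjusted p = 0.27 by limma), and Fn1, fibronectin, 125.6 and 95.7 TPM (0.38, adjusted p = 0.31). Of the TEAD targets, Lats2, a kinase that restrains YAP, averaged 45.0 and 35.7 TPM (0.32, adjusted p = 0.27), and F3, tissue factor, 68.1 and 55.5 TPM (0.29, adjusted p = 0.29). None of these passed the test.

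Among TGF-beta pathway components, Smurf2, a ubiquitin ligase of SMAD signalling, averaged 52.0 TPM with RECTAS and 41.5 TPM with vehicle (log2 0.32), and the receptor gene Tgfbr1 16.7 and 13.6 TPM (0.27). Among receptors of the proteins described here, Cd36, a thrombospondin receptor, averaged 880.2 and 749.8 TPM (0.23), and Itga5, a fibronectin receptor subunit, 30.2 and 24.0 TPM (0.32). Of the matricellular genes, Ccn3 averaged 8.65 and 6.34 TPM (0.38) and Sparc 1332 and 1154 TPM (0.21). Adamts1, a secreted metalloprotease, averaged 53.8 and 37.1 TPM (0.53), whereas the inhibitor Timp1 averaged 10.2 and 14.0 TPM (-0.40). The endothelin converting enzyme Ece1 averaged 261.3 and 202.9 TPM (0.35). Adjusted p lay between 0.26 and 0.44 by limma for these genes.

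Srf, the serum response factor itself, averaged 36.0 ± 3.50 TPM with RECTAS and 26.1 ± 1.49 TPM with vehicle (log2 0.45), and Filip1l, an actin-associated gene, 49.9 and 33.9 TPM (0.55). Of the immediate early genes, Jun averaged 167 and 117 TPM (0.52), Atf3 10.9 and 5.90 TPM (0.78) and Klf4 113.9 and 53.9 TPM (1.17). Adjusted p lay between 0.24 and 0.27 by limma. In sum over their lists, SRF/MRTF targets measured 4401, 4246 and 4402 TPM in vehicle and 5076, 5162 and 4906 TPM in RECTAS lung, and immediate early genes 1125, 1216 and 1116 TPM and 1535, 1277 and 1330 TPM. Neither sum overlapped between groups. The same held in lung for the sums of TEAD targets, Hippo components, TGF-beta responsive genes, matricellular genes, metalloproteases and receptors, so it was not particular to these lists. The sums of TGF-beta pathway components, protease inhibitors and endothelin pathway genes overlapped. The part of cell composition in these sums was not tested.

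In colon and liver 0 of the 136 and 0 of the 113 list genes tested were called. In colon RECTAS lay wholly above vehicle for 6 of them and wholly below for 1, beside 3.43% and 2.01% of all genes. In liver it did so for 3 and 12, beside 5.75% and 13% of all genes. The TEAD targets had a median of -0.002 in colon, with 8 of 17 higher, beside 0.018 and 57.2% higher for all genes. In liver their median was -0.14, with 2 of 12 higher, beside -0.038 and 40% higher for all genes. The 11 list medians in liver lay between -0.45 and 0.046, and 3 were above 0. Immediate early genes had the lowest of them (-0.45, 3 of 12 higher), and matricellular genes had -0.17 (1 of 5 higher). In liver Nt5e, an ectonucleotidase, averaged 15.8 TPM with RECTAS and 11.3 TPM with vehicle (log2 0.44), while Junb, an AP-1 subunit, averaged 22.3 and 48.0 TPM (-1.13) and Ece1 141 and 172 TPM (-0.28), with adjusted p of 0.27 to 0.28 by limma. In colon Gadd45a, a stress gene, averaged 67.5 and 45.3 TPM (0.56, unadjusted p = 0.014, adjusted p = 1).

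**Figure D4:**
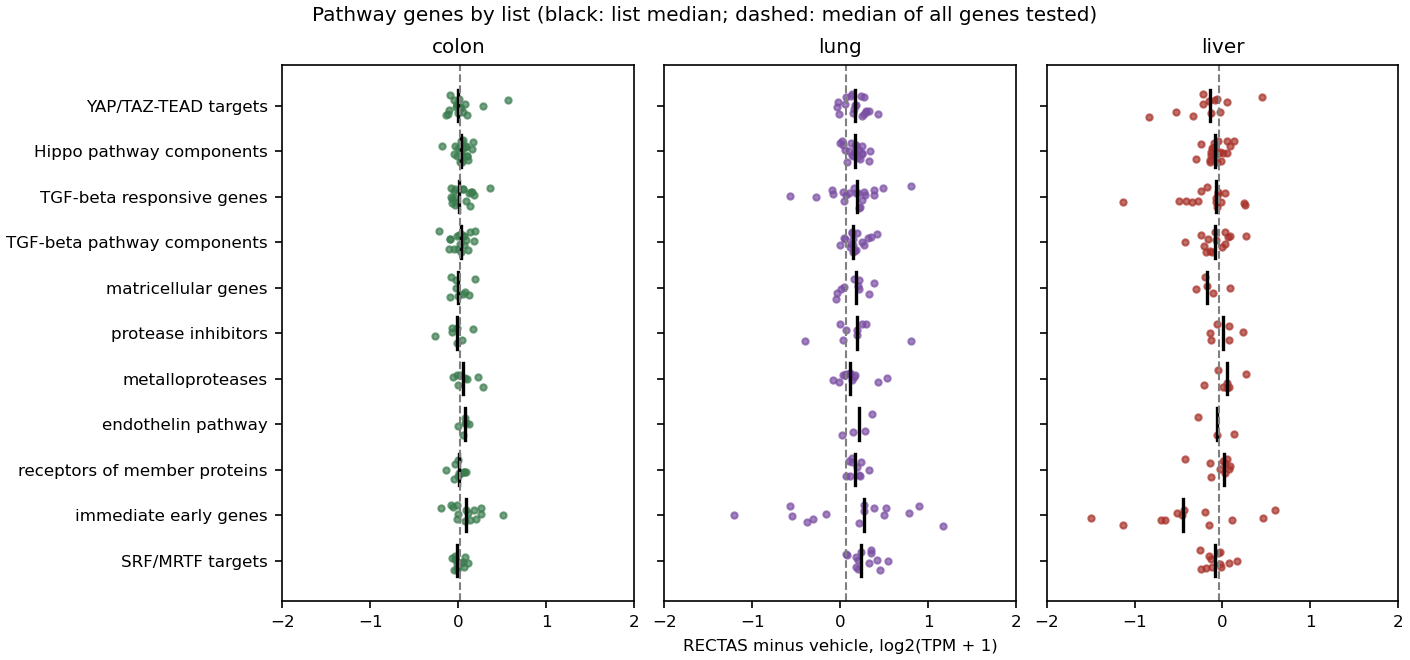
Difference between RECTAS and vehicle in log2(TPM + 1) of each gene tested in the 11 pathway lists, in colon, lung and liver, with black bars at list medians and a dashed line at the median of all genes tested. In lung every black bar lies right of the dashed line (0.058), and 0 of the points passed the adjusted test in any tissue.

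Within groups the 9 genes varied together to different degrees. Residuals from the mean of each gene's own tissue and treatment group were taken over the 18 libraries, which share the total to which TPM sums. Amotl2 followed the mean of the other 8 most closely (Pearson r = 0.84 as a description), then Tinagl1 (0.78), Thbs1 (0.76), Ccn1 (0.73), Timp3 (0.67), Ccn2 (0.65), Edn1 (0.53) and Ajuba (0.41), and Pxdc1 ran against it (-0.40). In liver Edn1 (-0.65) and Thbs1 (0.69) were at 0.45 TPM or less, too low to be tested. Over the 6 colon libraries alone the values were 0.77 to 0.97 for each gene but Pxdc1 (-0.46). They ran from -0.61 to 0.60 in lung and from -0.65 to 0.81 in liver. The likeness over 18 libraries thus rested largely on the colon libraries.

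Of 6801 genes averaging at least 5 TPM in each tissue, those most like the 9 in these residuals were Macf1 (r = 0.93), Tns1 (0.93), Slc43a3 (0.93), Cd81 (0.92) and Csrp1 (0.92). Over the 6 colon libraries alone the same 5 genes had r of 0.95 to 0.99, over lung 0.48 to 0.89 and over liver 0.21 to 0.81. Macf1 encodes a linker of actin and microtubules, Tns1 a focal adhesion protein and Csrp1 a LIM protein of smooth muscle.

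Some of the genes, 5 of the 9, overlap another annotated gene, and the sources used here do not say whether counting used the strand, so reads of the pair cannot be told apart. Syn3, which overlaps Timp3, measured 2.28 to 2.85 TPM in vehicle lung and 2.06 to 2.57 TPM in RECTAS lung. Gm15270, beside Ccn2, measured 1.16 to 2.96 and 1.72 to 2.75 TPM, and Gm47118, beside Edn1, 0 to 0.50 and 0.19 to 1.05 TPM. Gm29233, beside Thbs1, was listed at 0 in all 6 lung libraries, and Gm15908, beside Pxdc1, at 0.10 TPM at most. Each is far below the level of its neighbour in lung.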

How the data were processed

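Polyadenylated RNA of 18 libraries was made into libraries with a TruSeq stranded kit after TRIzol extraction, per the labels' protocols. The authors deposited TPM per gene for each library, which was analysed unchanged. The submitters' processing notes name GRCm38 as the build, with RSEM 1.3.0 and HISAT2 2.2.0. No annotation release is given in the sources used here. Of the gene identifiers, 55141 of 55401 matched GENCODE M21, which gave coordinates and gene types.

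A gene entered a fit if 3 or more of its libraries reached 1 TPM, and was tested as log2(TPM + 1), which understates changes of low genes, with limma 3.58.1 in R 4.3.3 (two-sided moderated test, with the variance allowed to follow the mean). Each tissue was fitted alone, vehicle tissues in 1 fit of 9 libraries, and the liver minus colon response in 1 fit of 18. P-values were adjusted by Benjamini-Hochberg over all genes tested and called under 0.05. The procedure was tested on simulated data. The members and lists were chosen with earlier results of these data known. All 9 members are named. From each pathway list the genes named come from the called genes or, with none called, the 3 with the smallest unadjusted p. Some genes measured under this rule are left out of the text. The 5 genes of highest residual correlation are named. No pair of libraries was identical. The alternatives tried were other pseudocounts (0.1 and 5 TPM), a stricter filter at 5 TPM or none, 3 scalings (median ratio, quantile, and rescaling after removal of mitochondrial transcripts and the 20 highest genes), a replicate block, array weights, 1 fit of 18 libraries, the RECTAS libraries in place of vehicle, and leaving out each library.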

Additional observations from a re-analysis of the deposited data

How the results depend on the processing

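In colon and liver 0 of the 9 genes were called under any alternative, with 0 genes called over the whole table in colon against 2 with a pseudocount of 0.1 TPM, 1 in 1 fit of all 18 libraries and 0 to 1 without single libraries. Over all genes liver had 2 called, 7 with a filter of 5 TPM, 5 with quantile normalisation, 5 with median ratio scaling, 94 in 1 fit of all 18 libraries and 0 to 6 without single libraries. Lung had 1 called, 33 in 1 fit of all 18 libraries and 0 to 4 without single libraries. The difference between the liver and colon responses had 5 called, 1 with a pseudocount of 0.1 TPM, 10 with 5 TPM, 13 with no filter, 1 with quantile normalisation and 0 to 7 without single libraries. The labels state no pairing of the replicate numbers. The correlation of same-numbered deviations was 0.35, -0.29 and 0.039 in colon, 0.41, -0.065 and 0.32 in lung, and 0.028, -0.014 and -0.021 in liver. Differently numbered libraries were not compared, so these values cannot decide whether the numbers pair samples. With the replicate block 0 genes were called in liver and 2 for the difference of responses, and the vehicle difference of Ccn1 between liver and colon lost its call (adjusted p = 0.054 by limma). That call was also lost with no filter (0.068) and among the RECTAS libraries (0.064). Leaving out single libraries turned the sign of differences near 0. In colon they ranged from -0.11 to 0.58 for Ccn1, -0.26 to 0.29 for Ccn2, -0.16 to 0.30 for Thbs1, -0.13 to 0.32 for Timp3, -0.12 to 0.19 for Pxdc1, -0.14 to 0.17 for Amotl2 and -0.10 to 0.13 for Ajuba. In liver they ranged from -0.41 to 0.12 for Ccn1, -0.22 to 0.0032 for Timp3, -0.11 to 0.089 for Amotl2 and -0.075 to 0.16 for Ajuba. In lung the differences ranged from 0.91 to 1.04 for Ccn2, 0.74 to 0.997 for Thbs1, 0.43 to 0.49 for Timp3, 0.48 to 0.52 for Tinagl1 and 0.61 to 0.71 for Pxdc1, and more widely from -0.28 to 0.19 for Ccn1, 0.15 to 0.57 for Edn1, 0.20 to 0.40 for Amotl2 and 0.0062 to 0.18 for Ajuba. The cause of these changes was not tested. TPM keeps no depth, so no limit from counts can be given.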
